A study of Mus musculus with 12 samples.

Results

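The subject here is the interaction of stiffness with stress relaxation: whether the change in RNA from a 2 kPa to a 20 kPa gel differed between viscoelastic and elastic gels. It was taken over all 12 of the 12 samples, with 3 in each of 4 groups. Primary fibroblasts from the ears of 1-month-old C57BL/6 mice, at passage 2, were kept for 48 h on alginate gels carrying RGD, a peptide that integrins bind. The elastic 2 kPa and elastic 20 kPa gels were covalently crosslinked and relaxed little under load, whereas the viscoelastic 2 kPa and viscoelastic 20 kPa gels were ionically crosslinked and relaxed slowly. Gel type thus changed with the crosslinker, and the part of the relaxation and that of the crosslinking chemistry cannot be told apart. Stiffness was set by the crosslinker concentration, which for the viscoelastic gels was that of calcium. Each response to stiffness, and so the interaction, therefore includes a change in crosslinker that cannot be told apart from stiffness. No agent or genetic change was applied in any group.

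Cells sense stiffness by pulling on their substrate through integrins and actomyosin. Tension on a stiff gel is known to release MRTF to SRF, which drives contractile genes, and to bring YAP to TEAD factors in the nucleus. On a substrate that relaxes, part of that tension dissipates with time, so the response to stiffness need not be the same on both gel types.

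For each gene the interaction is given on the log2 scale as the stiffness response on viscoelastic gels (20 against 2 kPa) minus that on elastic gels. A positive value means that the gene went up more, or down less, with stiffness on viscoelastic gels. Genes were called at a Benjamini-Hochberg adjusted p under 0.05 in edgeR's quasi-likelihood test over all 14542 tested genes. Levels are CPM, the count of a gene scaled to a fixed total per sample and by TMM, and errors beside log2 values are standard errors. Genes are not compared with each other by level, since CPM is not per length.

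Samples held 36626221 to 43612804 counts. Mitochondrial genes took 1.32% to 2.48% of them and 18S ribosomal RNA took 0.554% to 1.51%. The cells are labelled fibroblasts, and the 20 fibroblast identity genes summed to 6603 to 6984 CPM on elastic 20 kPa gels, with Tcf21 at 0 in every sample. The 10 chondrocyte markers, among them the cartilage collagen Col2a1 and the proteoglycan Acan, summed to 5177 to 5228 CPM in the same samples, so cartilage RNA was abundant. These sums depend on the genes chosen and do not give the proportion of cartilage to fibroblast RNA. The list of fibrillar and associated collagens, for instance, summed to 36635 to 37993 CPM in these samples. In bulk RNA, fewer cells of a type and less RNA per cell cannot be told apart.

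The interaction was called for 1100 genes (7.56% of those tested), 647 positive (4.45%) and 453 negative (3.12%). At an unadjusted p under 0.05 there were 3267. The median interaction was 0.02 over all tested genes and the median absolute value over called genes was 0.64. Of the called genes, 286 had an interaction of at least 1 in size, 184 of them positive and 102 negative. Without replicate 1 of the elastic 2 kPa group 670 genes were called, and without replicate 1 of the viscoelastic 20 kPa group 727. DESeq2 called 1369. Of 213 called genes chosen for closer description, 129 kept their call whichever single sample was left out. Some of the 213 were chosen for a low p or a large change, so this is not the rate of all calls. Where a call was lost, the highest adjusted p over these 12 fits is given as "up to".

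The called genes moved mainly on elastic gels. The stiffness response itself was called for 2029 genes on elastic gels (14.0%) and for 331 on viscoelastic gels (2.28%). Among the 647 genes with a positive interaction, 455 had a called response on elastic gels alone, 55 on viscoelastic gels alone, 37 on both in opposite directions and 100 on neither. The 453 negative genes divided in the same order into 297, 32, 32 and 92. No gene with a called interaction had called responses of the same direction on both gel types. In 90.0% of the positive and 90.5% of the negative genes the 2 fitted responses had opposite signs, a share that the choice of genes by their interaction favours.

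Median stiffness responses of the positive genes were −0.46 on elastic and 0.21 on viscoelastic gels. Those of the negative genes were 0.42 and −0.20. By group means, 388 of the 647 positive genes stood highest on elastic 2 kPa gels and 257 on viscoelastic 20 kPa gels. Of the 453 negative genes, 305 stood highest on elastic 20 kPa gels and 142 on viscoelastic 2 kPa gels. These values describe the genes that the interaction test chose and carry no test of their own.

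**Figure D1:**
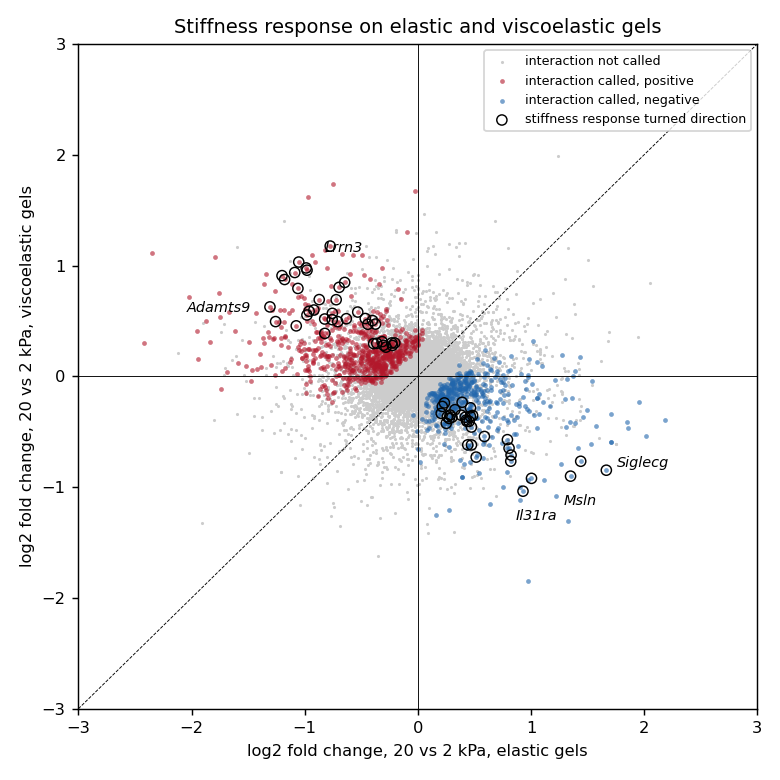
Fitted log2 fold change from 2 to 20 kPa on elastic gels (x axis) and on viscoelastic gels (y axis) for the 14542 tested genes, with positive interaction calls in red, negative calls in blue and the 69 genes whose response turned direction ringed. Called genes lie off the dashed line of equal response, mainly to the upper left and lower right, and spread further along the elastic axis.

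In 69 genes (0.474% of those tested) the stiffness response was called on both gel types with opposite signs and the interaction was called, positive in 37 and negative in 32. The 2 responses share no sample. Both responses were called in 110 genes, and in the other 41 they had the same direction. The count of 69 rested on single samples. It was 8 without replicate 3 and 13 without replicate 1 of the viscoelastic 20 kPa group, 23 without replicate 1 of the viscoelastic 2 kPa group, 32 without replicate 2 of the elastic 20 kPa group and 44 without replicate 2 of the elastic 2 kPa group. DESeq2 gave 133.

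The positive interaction with the lowest p belonged to Adamts9 (chr6:92772699-92943492, minus strand, mm10), a secreted protease that cleaves the proteoglycan versican. It had levels of 96.4, 84.5 and 74.3 CPM on elastic 2 kPa gels and 35.1, 34.0 and 34.0 CPM on elastic 20 kPa gels. The viscoelastic 2 kPa samples had 38.5, 45.5 and 45.0 CPM and the viscoelastic 20 kPa samples 64.2, 70.0 and 65.2 CPM. Each group was apart from its partner of the other stiffness, with the soft elastic and stiff viscoelastic samples high. The response was −1.31 ± 0.09 on elastic gels and 0.63 ± 0.09 on viscoelastic gels, and the interaction was 1.93 ± 0.12 (edgeR adjusted p = 1.35e-06).

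Col14a1 encodes a collagen that associates with fibril surfaces. Its levels were 114, 116 and 124 CPM on elastic 2 kPa gels and 58.0, 58.3 and 51.3 CPM on elastic 20 kPa gels. At 2 kPa the viscoelastic samples gave 62.3, 64.2 and 73.3 CPM, and at 20 kPa 98.5, 79.9 and 95.8 CPM. It thus fell with stiffness on elastic gels and rose on viscoelastic gels, with no overlap within either pair (interaction 1.53 ± 0.12, edgeR adjusted p = 7.94e-06). Chst2, a sulfotransferase that acts on glycans, had an interaction of 1.75 ± 0.14, Ldlrad3 one of 1.15 ± 0.09, and Crispld1 one of 2.05 ± 0.19. All of these had called responses of opposite sign on the 2 gel types.

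Lrrn3, a leucine-rich repeat membrane protein, exchanged one direction for the other. Its levels were 37.1, 34.5 and 33.4 CPM on elastic 2 kPa gels and 19.0, 16.1 and 17.9 CPM on elastic 20 kPa gels. Its viscoelastic levels were 14.0, 17.5 and 15.6 CPM at 2 kPa and 27.5, 37.4 and 27.8 CPM at 20 kPa. The loss on elastic gels (−0.99 ± 0.11) and the gain on viscoelastic gels (0.98 ± 0.11) were alike in size, and the interaction was 1.97 ± 0.16 (edgeR adjusted p = 7.94e-06). The water channel Aqp1 followed the same order, with responses of −0.65 ± 0.09 and 0.85 ± 0.09. Lratd1 was among the genes with the lowest p as well, with an interaction of 1.80 ± 0.14, but its response was called on elastic gels alone (−1.49 ± 0.10, against 0.31 ± 0.10 on viscoelastic gels, adjusted p = 0.0989).

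The other positive genes that turned direction by the most were Tmem252, Ptn, Tspan8 and Nrep. Ptn encodes pleiotrophin, a heparin-binding growth factor. Its levels were 94.1, 70.5 and 100.4 CPM on elastic 2 kPa gels and 52.6, 40.9 and 40.9 CPM on elastic 20 kPa gels. Viscoelastic samples were at 50.2, 101 and 63.7 CPM on 2 kPa gels and at 113, 178 and 126 CPM on 20 kPa gels, so the viscoelastic 20 kPa samples were highest and replicate 2 of the viscoelastic 2 kPa group reached the soft elastic level (interaction 1.94 ± 0.31, edgeR adjusted p = 0.0016). Nrep had an interaction of 2.11 ± 0.28, Tspan8, a tetraspanin, one of 2.03 ± 0.27, and Tmem252 one of 2.08 ± 0.35.

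Penk, the precursor of enkephalin peptides, turned direction at a high level. It was at 2125, 1999.5 and 2058 CPM on elastic 2 kPa gels and 1204, 1002 and 929 CPM on elastic 20 kPa gels. In the viscoelastic groups the values were 1128, 1838 and 1553 CPM at 2 kPa and 2112, 2331 and 2190.1 CPM at 20 kPa. The elastic pair fell by 0.98 on the log2 scale and the viscoelastic pair rose by 0.55 (adjusted p = 0.048), giving an interaction of 1.53 ± 0.19 (edgeR adjusted p = 0.000313).

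Among negative genes, Il31ra (chr13:112519898-112594360, minus strand, mm10), a subunit of the interleukin 31 receptor, had the lowest p. It measured 2.76, 3.72 and 3.27 CPM on elastic 2 kPa gels and 6.35, 5.84 and 6.39 CPM on elastic 20 kPa gels. On viscoelastic gels it stood at 6.59, 5.47 and 5.46 CPM at 2 kPa and 2.55, 2.99 and 3.01 CPM at 20 kPa. The stiff elastic and soft viscoelastic samples were thus high and overlapped each other, and each was apart from its partner. The responses were 0.93 ± 0.13 and −1.04 ± 0.13, and the interaction was −1.97 ± 0.18 (edgeR adjusted p = 2.62e-05).

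Siglecg, a lectin of the sialic-acid-binding family, stood at 1.79, 1.79 and 1.59 CPM on elastic 2 kPa gels and 4.79, 5.36 and 6.31 CPM on elastic 20 kPa gels. The viscoelastic 2 kPa samples had 5.33, 4.95 and 3.87 CPM and the viscoelastic 20 kPa samples 2.06, 3.44 and 2.36 CPM. It rose with stiffness on elastic gels and fell on viscoelastic gels (interaction −2.51 ± 0.26, edgeR adjusted p = 7.25e-05). Bst1, a surface enzyme that makes cyclic ADP-ribose, had an interaction of −1.92 ± 0.20. Serpinb9b, a serine protease inhibitor, had one of −2.21 ± 0.24, and Msln, which encodes mesothelin, one of −2.25 ± 0.29. Each of these had a called gain on elastic gels and a called loss on viscoelastic gels.

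Other genes that rose on elastic and fell on viscoelastic gels are named here, some of them chosen after their values were seen. Heg1, a transmembrane receptor of endothelium and heart, had levels of 79.8, 97.9 and 82.3 CPM on elastic 2 kPa gels and 119, 121 and 113 CPM on elastic 20 kPa gels. At 2 kPa the viscoelastic samples gave 126, 104 and 107 CPM, and at 20 kPa 73.8, 71.3 and 74.6 CPM, with no overlap within either pair (interaction −1.06 ± 0.12, edgeR adjusted p = 0.000112). Flt4, the receptor for VEGF-C, had an interaction of −1.36 ± 0.15, the oxytocin receptor Oxtr one of −1.59 ± 0.20, the leptin receptor Lepr one of −1.45 ± 0.22, and the ephrin ligand Efnb2 one of −0.63 ± 0.08. Ccdc9b had one of −1.09 ± 0.11. Sulf1, which trims sulfate from heparan sulfate, rose on elastic gels (0.47 ± 0.08) and fell on viscoelastic gels (−0.46 ± 0.08). The guidance receptor Robo2 turned the other way, with responses of −0.82 ± 0.08 and 0.39 ± 0.08.

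**Figure D2:**
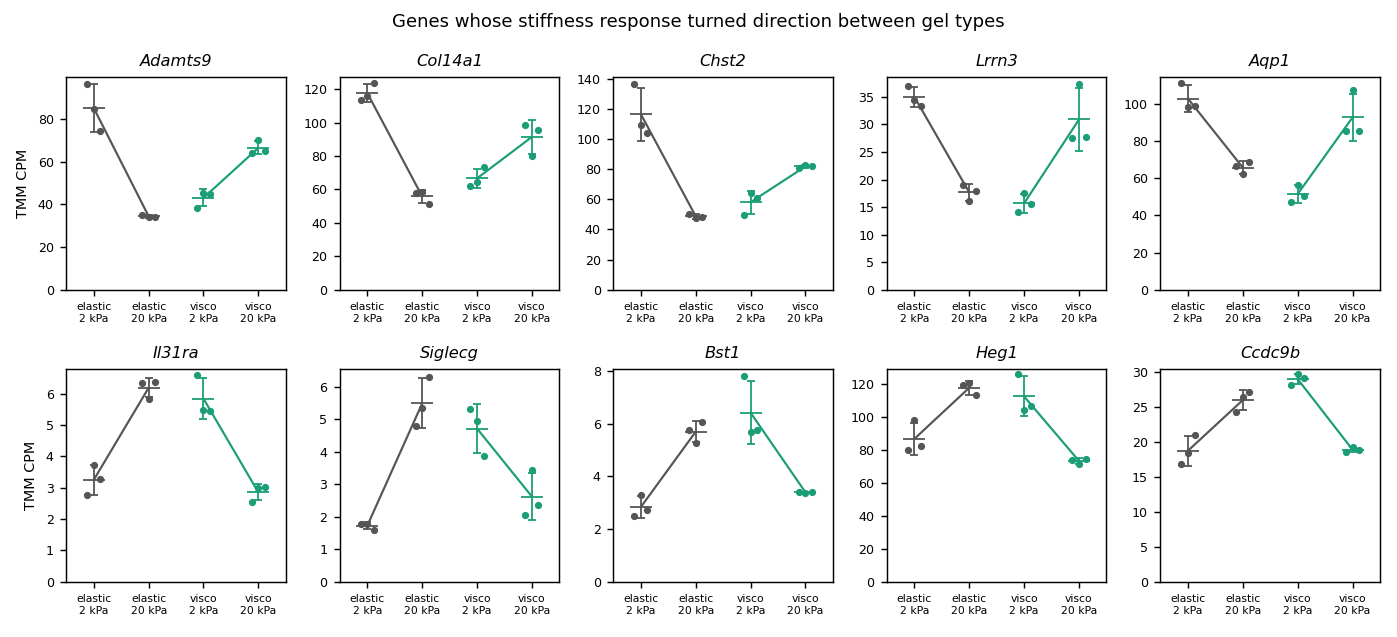
Level in CPM (y axis, from 0) of 10 genes whose stiffness response was called in opposite directions, with 1 point per sample, bars for the mean ± SD of 3 samples, and lines joining 2 kPa to 20 kPa within elastic (grey) and viscoelastic (green) gels. The upper row falls on elastic and rises on viscoelastic gels, and the lower row does the reverse.

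The interaction can also be read across gel types. The difference between gel types (viscoelastic against elastic) was called for 2892 genes at 2 kPa (19.9%) and 4866 at 20 kPa (33.5%). It turned direction between the stiffnesses in 193 genes (1.33%), of which 113 had positive and 80 negative interactions. Called in both, it kept its direction in 1394 of 1587 genes. In 40 genes (0.275%) both readings turned, 20 in each direction.

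Nrep, which turned direction in both readings, was lower on viscoelastic gels at 2 kPa (−0.99 ± 0.20) and higher at 20 kPa (1.12 ± 0.20). Adamts9 gave −0.98 ± 0.09 and 0.95 ± 0.09. Myoc encodes myocilin, a secreted glycoprotein, and gave −1.18 ± 0.19 and 0.83 ± 0.19. Tspan8 gave −0.93 ± 0.19 and 1.10 ± 0.19, and Fam222a −0.84 ± 0.27 and 0.83 ± 0.28. In the other direction Siglecg gave 1.45 ± 0.19 at 2 kPa and −1.06 ± 0.18 at 20 kPa, and Il31ra 0.85 ± 0.13 and −1.12 ± 0.13. The placental-family hormone genes Prl2c3 and Prl2c4 had the same count in each sample and an interaction of −2.30 ± 0.31. They are near-identical copies and count as 1 uncertain signal.

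By gene list, negative calls gathered in the contractile genes. Of 30 tested SRF and contractile genes, 14 were called negative and 0 positive (46.7% negative, against 3.12% of all tested genes). The median interaction was −0.42, from a median response of 0.33 on elastic gels and −0.10 on viscoelastic gels. On elastic gels 16 of the 30 rose with stiffness and 0 fell, and on viscoelastic gels 1 rose and 1 fell. Leaving out each sample in turn kept the median within −0.50 to −0.34, and 13 of the 14 kept their calls, Tpm4 reaching an adjusted p of 0.0745.

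Actg2, the enteric smooth muscle actin, was at 11.9, 11.8 and 11.3 CPM on elastic 2 kPa gels and 20.7, 21.8 and 26.0 CPM on elastic 20 kPa gels. Its viscoelastic levels were 17.5, 16.9 and 13.3 CPM at 2 kPa and 11.98, 14.1 and 12.8 CPM at 20 kPa. The elastic pair was apart and the viscoelastic pair overlapped, and all viscoelastic samples lay between the 2 elastic groups (interaction −1.26 ± 0.15, edgeR adjusted p = 0.000228). Acta2, the smooth muscle actin that marks myofibroblasts, measured 563, 530.0 and 491 CPM on elastic 2 kPa gels and 722, 795 and 829 CPM on elastic 20 kPa gels. Viscoelastic samples were at 673, 629 and 618 CPM on 2 kPa gels and at 597, 517 and 620.0 CPM on 20 kPa gels. It rose on elastic gels (0.57 ± 0.08), while on viscoelastic gels the response was −0.15 ± 0.08 (adjusted p = 0.35), and the interaction was −0.71 ± 0.12 (edgeR adjusted p = 0.00163).

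The rest of the called contractile genes had negative interactions of several kinds of protein. Myh11, the smooth muscle myosin heavy chain, had an interaction of −2.06 ± 0.30 at low levels (1.02, 1.54 and 0.879 CPM on elastic 2 kPa gels and 3.48, 2.26 and 3.501 CPM on elastic 20 kPa gels). The actin nucleator Lmod1 gave −1.17 ± 0.16, the actin-bound protein Tagln −0.88 ± 0.14, calponin Cnn1 −0.79 ± 0.11 and its relative Cnn2 −0.42 ± 0.08. The focal adhesion protein Zyx gave −0.60 ± 0.09, Filip1l −0.80 ± 0.10, the tropomyosins Tpm2 and Tpm4 −0.53 and −0.44, caldesmon Cald1 −0.52, alpha-actinin Actn1 −0.46 and the myosin light chain Myl9 −0.52 ± 0.09. Tpm1 rose on elastic gels (0.38 ± 0.07) and was not called for the interaction (−0.22 ± 0.09, adjusted p = 0.18). The difference between gel types turned direction in 9 of the 30 (Acta2, Actg2, Cnn1, Filip1l, Lmod1, Myh11, Tagln, Tpm2 and Zyx), against 1.33% of all tested genes. The stiffness response turned in 0 of the 30 by edgeR.

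**Figure D3:**
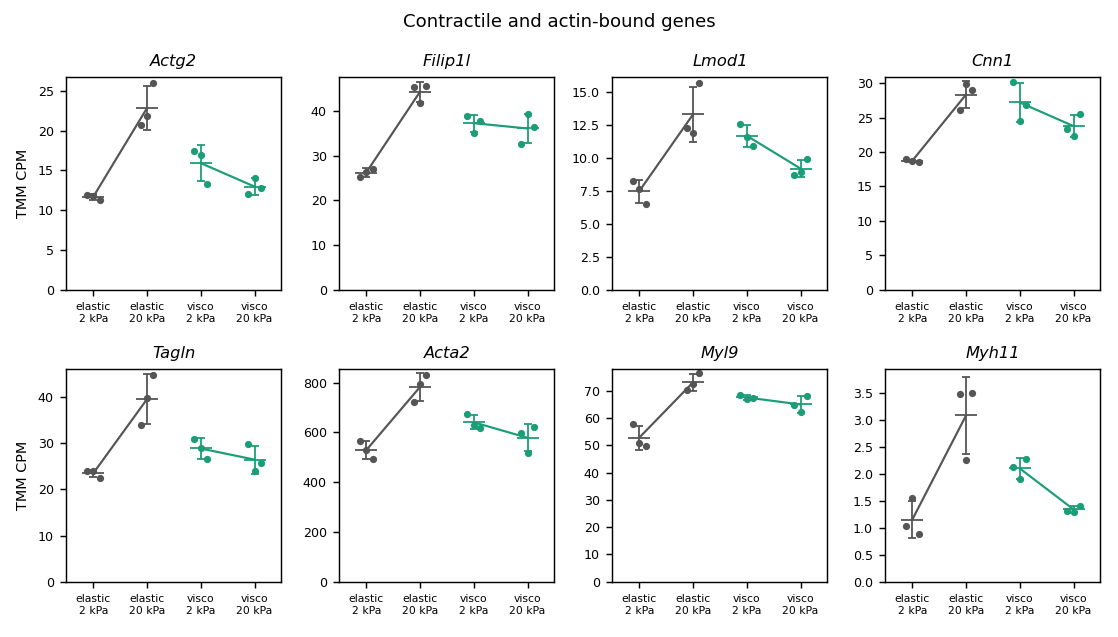
Level in CPM (y axis, from 0) of 8 contractile genes, with 1 point per sample, bars for the mean ± SD of 3 samples and lines joining 2 to 20 kPa within elastic (grey) and viscoelastic (green) gels. On elastic gels each of the 8 is higher at 20 kPa in 3 of 3 samples, and on viscoelastic gels the 2 stiffnesses overlap in 6 of the 8, with Lmod1 and Myh11 lower at 20 kPa.

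SRF binds a short element called the CArG box, so windows before the transcription starts were searched for it on both strands. RefSeq windows of GRCm38.p6 (250 bases before to 50 after a start) were matched to 10882 of the tested genes, of which 1.53% held a CArG box. Among SRF and contractile genes 7 of 25 with a window held one (28.0%: Acta1, Actg1, Cnn2, Filip1l, Myl9, Srf and Vcl), and the list was in part drawn up from known SRF targets. Of these, Cnn2, Filip1l and Myl9 had a called negative interaction. Over all called genes with a window, 10 of 346 negative (2.89%) and 4 of 483 positive genes (0.828%) held one. The 250 bases before the start of these 3 genes are shown with the CArG box in capitals, as letters that match and not as shown sites of binding. The windows are chr2:156775214-156775463 for Myl9, chr16:57548992-57549241 for Filip1l and chr10:79988350-79988599 for Cnn2, all on the plus strand, and the box begins 161, 62 and 56 bases before the start.
Myl9: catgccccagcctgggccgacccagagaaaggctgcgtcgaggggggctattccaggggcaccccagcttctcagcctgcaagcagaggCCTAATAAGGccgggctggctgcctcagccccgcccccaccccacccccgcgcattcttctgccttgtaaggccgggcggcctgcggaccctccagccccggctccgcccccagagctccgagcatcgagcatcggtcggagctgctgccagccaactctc
Filip1l: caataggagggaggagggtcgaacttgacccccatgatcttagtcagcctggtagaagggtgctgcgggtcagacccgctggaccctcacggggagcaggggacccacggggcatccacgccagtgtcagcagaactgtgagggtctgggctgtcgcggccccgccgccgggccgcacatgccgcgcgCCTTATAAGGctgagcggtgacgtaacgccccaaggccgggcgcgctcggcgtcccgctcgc
Cnn2: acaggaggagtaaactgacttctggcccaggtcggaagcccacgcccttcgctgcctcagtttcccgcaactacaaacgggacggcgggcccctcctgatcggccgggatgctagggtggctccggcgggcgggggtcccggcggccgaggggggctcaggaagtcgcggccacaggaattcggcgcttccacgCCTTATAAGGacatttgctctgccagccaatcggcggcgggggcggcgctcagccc

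YAP and TEAD targets were called negative in 6 of 26 (23.1%, against 3.12% of all tested genes) and positive in 2 (7.69%, against 4.45%), with a median of −0.26. Ankrd1, a nuclear ankyrin-repeat protein widely used as a YAP readout, stood at 3.29, 3.97 and 3.82 CPM on elastic 2 kPa gels and 7.05, 8.42 and 11.9 CPM on elastic 20 kPa gels. In the viscoelastic groups the values were 6.403, 7.61 and 5.51 CPM at 2 kPa and 5.36, 5.34 and 6.30 CPM at 20 kPa, and only the elastic pair was apart (interaction −1.50 ± 0.24, edgeR adjusted p = 0.00169). Amotl2, which binds YAP, rose on elastic gels (0.47 ± 0.08) and fell on viscoelastic gels (−0.36 ± 0.08). The other negative calls were tissue factor F3 (−0.74), the receptor kinase Axl (−0.58), Crim1 (−0.39) and Dlc1 (−0.34). The positive calls were Tgfb2 (1.62) and Fjx1 (1.11). The abundant targets Ccn1 (−0.19 ± 0.21, adjusted p = 0.653) and Ccn2 (−0.55 ± 0.17, adjusted p = 0.059) were not called. The letters CATTCC, a TEAD element, stood on either strand in 10 of 18 windows of the list (55.6%), against 14.9% of tested genes, 18.2% of negative and 14.5% of positive genes. They also stood in 11 of 25 windows of SRF and contractile genes (44.0%) and in 2 of 6 of chondrocyte markers (33.3%). The YAP and TEAD list was drawn up from known targets, so its share is not independent of the motif. Crim1 (adjusted p up to 0.0797) and Dlc1 (up to 0.125) lost their calls with single samples left out.

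Of 30 integrin and focal adhesion genes, 4 were negative (Lims2 −1.31, Itga3 −0.62, Tln2 −0.54, Tgfb1i1 −0.35) and Tns1 was positive (0.38). The shares were 13.3% negative and 3.33% positive, against 3.12% and 4.45% of all tested genes. Talin Tln1, which links integrins to actin, had an interaction of −0.24 ± 0.10 (adjusted p = 0.15) and vinculin Vcl one of −0.43 ± 0.18 (adjusted p = 0.172). Itga3 lost its call with single samples left out (adjusted p up to 0.0798).

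At the nucleus, 3 of 30 lamina, LINC and pore genes were negative (10.0%, against 3.12% of all tested genes) and 0 positive, with a median of −0.12. They were the lamin B receptor Lbr (−0.49 ± 0.11), the lamina protein Tmpo (−0.43 ± 0.09) and the pore protein Nup54 (−0.29 ± 0.08). Tmpo had levels of 147, 158 and 163 CPM on elastic 2 kPa gels and 203, 207 and 219 CPM on elastic 20 kPa gels. On viscoelastic gels it stood at 165, 153 and 142 CPM at 2 kPa and 154, 145 and 161 CPM at 20 kPa, so that the gain with stiffness was seen on elastic gels and the viscoelastic groups overlapped. Lamin A/C, Lmna, had an interaction of −0.15 ± 0.11 (95% interval −0.39 to 0.09, adjusted p = 0.487) and lamin B1, Lmnb1, one of −0.30 ± 0.12 (adjusted p = 0.161). Among 39 histone acetylation and methylation genes, Hdac7 (−0.51 ± 0.08) and Hdac4 (−0.48 ± 0.12) were negative, and Kmt2c (0.30 ± 0.08) and Kdm6b (0.34 ± 0.09) positive. This was 5.13% in each direction, near the 4.45% positive and 3.12% negative of all tested genes, and the median was 0.04. Nup54 (adjusted p up to 0.0876), Hdac4 (up to 0.0633), Kdm6b (up to 0.0784) and Kmt2c (up to 0.0932) lost their calls with single samples left out.

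Cell division genes leaned one way with few calls. All 34 tested mitosis genes had a fitted interaction below 0, with a median of −0.30, and 4 of them were called by edgeR (11.8%, against 3.12% of all tested genes). DESeq2 called 9. The called ones were the kinesin Kif2c (−0.42 ± 0.11), the spindle assembly factor Tpx2 (−0.39 ± 0.11), the centromere histone Cenpa (−0.38 ± 0.10) and the checkpoint kinase Bub1b (−0.37 ± 0.11). Kif2c was at 43.5, 43.1 and 43.0 CPM on elastic 2 kPa gels and 56.1, 57.7 and 63.0 CPM on elastic 20 kPa gels. The viscoelastic 2 kPa samples had 39.8, 37.9 and 35.1 CPM and the viscoelastic 20 kPa samples 40.2, 33.4 and 41.4 CPM. The elastic pair was apart and the viscoelastic pair overlapped. On elastic gels 25 of the 34 rose with stiffness, and on viscoelastic gels 0 were called in either direction by edgeR. In DNA replication genes 1 of 34 was called negative (2.94%, near the 3.12% of all tested genes), the helicase subunit Mcm7 (−0.32 ± 0.09). The median was −0.17. Of 24 G1 cyclins and CDK inhibitors, the cell cycle inhibitors Cdkn1c (1.29 ± 0.24) and Cdkn2b (0.56 ± 0.12) were positive and 0 were negative. The positive share was 8.33%, against 4.45% of all tested genes. In that list 15 of the 24 had a fitted interaction below 0, with a median of −0.10. None of the 4 mitosis calls, nor that of Mcm7, held in every fit with 1 sample left out (adjusted p up to 0.108 in Bub1b), while those of both inhibitors did.

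The ATF4 program, which supplies amino acids under stress, was of the same kind. All 30 tested members had a fitted interaction below 0, with a median of −0.28, and 4 were called (DESeq2 9, and 8 after correction for gene length and GC content). The 4 were 13.3% of the list, against 3.12% of all tested genes called negative. On elastic gels 18 of the 30 rose with stiffness, and on viscoelastic gels 0 were called by edgeR. Trib3, a pseudokinase induced by ATF4, measured 9.76, 11.8 and 10.2 CPM on elastic 2 kPa gels and 14.7, 16.5 and 16.7 CPM on elastic 20 kPa gels. At 2 kPa the viscoelastic samples gave 17.6, 22.6 and 19.7 CPM, and at 20 kPa 17.6, 16.9 and 15.8 CPM (interaction −0.85 ± 0.14, edgeR adjusted p = 0.00171). The serine synthesis enzymes Psat1 (−0.51 ± 0.14) and Phgdh (−0.46 ± 0.13) and the folate enzyme Shmt2 (−0.44 ± 0.10) were the others. In glycolysis 3 of 32 genes (9.38%, against 3.12% of all tested genes) were negative (Vegfa −0.44, Ero1a −0.36, Pgk1 −0.36) and 0 positive. Psat1 (adjusted p up to 0.104), Phgdh (up to 0.109) and the 3 glycolysis genes (up to 0.0719, the highest) lost their calls with single samples left out, and DESeq2 called 7 of the glycolysis genes negative.

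Inflammatory genes were called negative in 6 of 28 (21.4%, against 3.12% of all tested genes) and positive in 3 (10.7%, against 4.45%), with a median of −0.17. Il6, the inflammatory cytokine, stood at 5.26, 9.40 and 7.47 CPM on elastic 2 kPa gels and 18.8, 13.9 and 13.2 CPM on elastic 20 kPa gels. Its viscoelastic levels were 15.8, 23.3 and 18.4 CPM at 2 kPa and 12.2, 17.9 and 11.5 CPM at 20 kPa, with the soft elastic samples lowest (interaction −1.52 ± 0.29, edgeR adjusted p = 0.00569). The neutrophil chemokines Cxcl1 (−1.38 ± 0.29), Cxcl2 (−2.57 ± 0.68) and Cxcl5 (−1.16 ± 0.28), the monocyte chemokine Ccl7 (−0.68) and the macrophage growth factor Csf1 (−0.73 ± 0.17) were also negative. Cxcl2 was near the detection limit (0.548, 0.490 and 0.522 CPM on elastic 2 kPa gels and 2.52, 0.958 and 3.67 CPM on elastic 20 kPa gels). The complement genes C4b (0.49 ± 0.11) and Hc (2.03 ± 0.51) were among the positive members, with Hc near the limit of detection. Of 11 immune cell markers 5 were tested and 0 called by edgeR, DESeq2 or limma voom (1 at an unadjusted p under 0.05), and the list summed to 9.88 to 12.8 CPM on elastic 20 kPa gels. With single samples left out, Cxcl2 (adjusted p up to 0.0906), Cxcl5 (up to 0.0594), Ccl7 (up to 0.0879) and Hc (up to 0.0678) were among those that lost their calls.

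The motif of NF-kB, the factor that drives many of these cytokines, was searched in the same windows. It stood in 8 of 21 windows of the list (38.1%), counting that of Ccl20, a member that was not tested. The motif stood in 9.82% of tested genes, 14.2% of negative genes and 9.94% of positive genes. It also stood in 7 of 20 windows of immediate early genes (35.0%) and in 3 of 6 of chondrocyte markers (50.0%). The inflammatory list holds cytokines that NF-kB is known to drive, so its share is not independent of the motif. The AP-1 letters TGACTCA or TGAGTCA stood in 8.38% of negative and 4.76% of positive genes, against 4.80% of tested genes. The 250 bases before the starts of Il6 (chr5:30012864-30013113, plus strand) and Cxcl1 (chr5:90890995-90891244, plus strand) are shown with the NF-kB letters in capitals. No other motif of those searched overlapped the capitals in any of the 5 windows printed.
Il6: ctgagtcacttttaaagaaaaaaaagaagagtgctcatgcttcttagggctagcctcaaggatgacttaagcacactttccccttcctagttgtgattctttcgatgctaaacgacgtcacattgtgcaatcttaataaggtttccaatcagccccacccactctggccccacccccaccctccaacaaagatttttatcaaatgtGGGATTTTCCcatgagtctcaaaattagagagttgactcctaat
Cxcl1: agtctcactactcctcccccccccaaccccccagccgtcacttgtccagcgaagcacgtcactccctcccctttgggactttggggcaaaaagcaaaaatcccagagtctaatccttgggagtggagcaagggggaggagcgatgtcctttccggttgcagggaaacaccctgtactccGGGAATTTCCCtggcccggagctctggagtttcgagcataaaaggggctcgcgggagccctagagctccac

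Of 26 immediate early genes 4 were negative (15.4%, against 3.12% of all tested genes) and 0 positive. The median was 0.04, close to that of all tested genes. Klf2, a factor induced by flow and tension, had levels of 20.1, 24.8 and 23.5 CPM on elastic 2 kPa gels and 39.6, 31.8 and 35.2 CPM on elastic 20 kPa gels. Viscoelastic samples were at 37.6, 48.8 and 36.6 CPM on 2 kPa gels and at 30.4, 30.0 and 32.7 CPM on 20 kPa gels (interaction −1.04 ± 0.16, edgeR adjusted p = 0.000925). Klf4 (−0.86 ± 0.14), the small Maf factor Maff (−0.99 ± 0.14) and the AP-1 member Fosl2 (−0.34 ± 0.08, adjusted p up to 0.0622) were the others.

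Positive calls came up among matrix and cartilage genes. Of 28 tested matrix proteases and inhibitors, 8 were positive and 5 negative (28.6% and 17.9%, against 4.45% and 3.12% of all tested genes), with a median of 0.18. The positive ones were Adamts9, Mmp13 (1.71 ± 0.41), Timp4 (1.60 ± 0.29), Adamts15 (1.53 ± 0.23), Mmp11 (0.70), Adamtsl1 (0.70), cathepsin K, Ctsk (0.50), and Mmp2 (0.40). Adamts5 (−0.99 ± 0.22), Timp1 (−0.65 ± 0.13), Adamts12 (−0.53) and Adamtsl3 (−0.44) were among the negative ones. The list thus split between members. Of the 13 calls 9 held whichever sample was left out, the exceptions including Adamtsl3 (adjusted p up to 0.0775), Ctsk (up to 0.123) and Mmp2 (up to 0.108).

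Adamts15, another versican-cleaving protease, was at 11.9, 9.99 and 9.12 CPM on elastic 2 kPa gels and 5.37, 4.74 and 3.62 CPM on elastic 20 kPa gels. In the viscoelastic groups the values were 4.30, 6.80 and 5.97 CPM at 2 kPa and 7.28, 7.77 and 6.82 CPM at 20 kPa. Both pairs were apart, with the soft elastic samples highest, and only the elastic response was called.

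The 22 tested collagens held 3 positive calls (Col14a1, Col18a1 0.85 ± 0.18 and Col4a6 0.59 ± 0.12) and 0 negative, with a median of 0.13. The positive share was 13.6%, against 4.45% of all tested genes. Among 30 matricellular and fibre proteins 6 were positive and 5 negative (20.0% and 16.7%, against 4.45% and 3.12% of all tested genes). Elastin, Eln, measured 552, 649 and 621 CPM on elastic 2 kPa gels and 282, 305 and 402 CPM on elastic 20 kPa gels. On viscoelastic gels it stood at 279.8, 520.0 and 353 CPM at 2 kPa and 537, 345 and 492 CPM at 20 kPa, and only the elastic pair was apart (interaction 1.13 ± 0.28, edgeR adjusted p = 0.0229). The basement membrane protein Nid2 gave 1.02 ± 0.13 and its relative Nid1 −0.47 ± 0.12. The microfibril proteins Mfap2 and Mfap5 also had opposite signs (0.94 ± 0.17 and −1.21 ± 0.20), as did the thrombospondins Thbs2 (0.40 ± 0.11) and Thbs1 (−0.71 ± 0.15). Tgfbi (0.65) and Efemp1 (0.64) were positive, and Fbln2 (−0.67) and tenascin Tnc (−0.47) negative. With single samples left out, Efemp1 (adjusted p up to 0.0514), Eln (up to 0.0607), Nid1 (up to 0.0646), Tgfbi (up to 0.063) and Thbs2 (up to 0.0899) lost their calls.

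Enzymes that build collagen fibres split in the same way, 3 of 25 in each direction. Both were larger shares than over all tested genes (4.45% positive and 3.12% negative). The crosslinking oxidases Lox (−0.69 ± 0.20) and Loxl2 (−0.65 ± 0.11) and the prolyl hydroxylase P4ha3 (−0.54 ± 0.12) were negative. Adamts14 (1.25 ± 0.35), P3h2 (0.47 ± 0.12) and Pcolce2 (0.41 ± 0.10) were positive. Of the small proteoglycans and hyaluronan genes, lumican, Lum, was positive (1.09 ± 0.19), and the hyaluronan synthase Has1 (−1.34 ± 0.37) and the hyaluronan-degrading Cemip (−0.54 ± 0.15) were negative. These were 5.26% and 10.5% of the 19 tested, the positive share near the 4.45% of all tested genes. Loxl2, P4ha3 and Lum kept their calls whichever sample was left out, and the others did not (adjusted p up to 0.0997 in Lox, the highest of them).

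Of the 9 tested chondrocyte markers 4 were positive and 0 negative (44.4%, against 4.45% of all tested genes), and all 9 had a fitted interaction above 0, with a median of 0.47. Col11a2, a cartilage collagen chain, stood at 749.8, 787 and 792 CPM on elastic 2 kPa gels and 380.0, 408 and 435 CPM on elastic 20 kPa gels. The viscoelastic 2 kPa samples had 377, 527 and 468 CPM and the viscoelastic 20 kPa samples 575, 425 and 499 CPM. The soft elastic samples were highest and the viscoelastic pair overlapped (interaction 1.06 ± 0.16, edgeR adjusted p = 0.00116). Col9a1 (1.01 ± 0.20), the link protein Hapln1 (0.64 ± 0.15) and Snorc (1.01 ± 0.23) were the others. Col2a1 (0.32 ± 0.18, adjusted p = 0.331), Acan (0.46 ± 0.16, adjusted p = 0.0916), Comp (0.34 ± 0.18), Matn3 (0.47 ± 0.28) and the factor Sox9 (0.05 ± 0.13) were not called. Col10a1 of hypertrophic cartilage, which is not on the list, was positive (1.19 ± 0.12, edgeR adjusted p = 6.57e-05). These 5 calls held whichever single sample was left out.

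Summed over the list, chondrocyte markers reached 5866 to 7382 CPM on elastic 2 kPa gels and 5177 to 5228 on elastic 20 kPa gels. On viscoelastic gels the sums were 5463 to 7026 CPM at 2 kPa and 5646 to 7123 CPM at 20 kPa. The elastic groups did not overlap and the viscoelastic groups did. None of the 10 was at 0 in all samples, and Matn1 was too low to be tested. The sum moved in the direction of the positive matrix genes, and its part in their values was not tested.

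**Figure D4:**
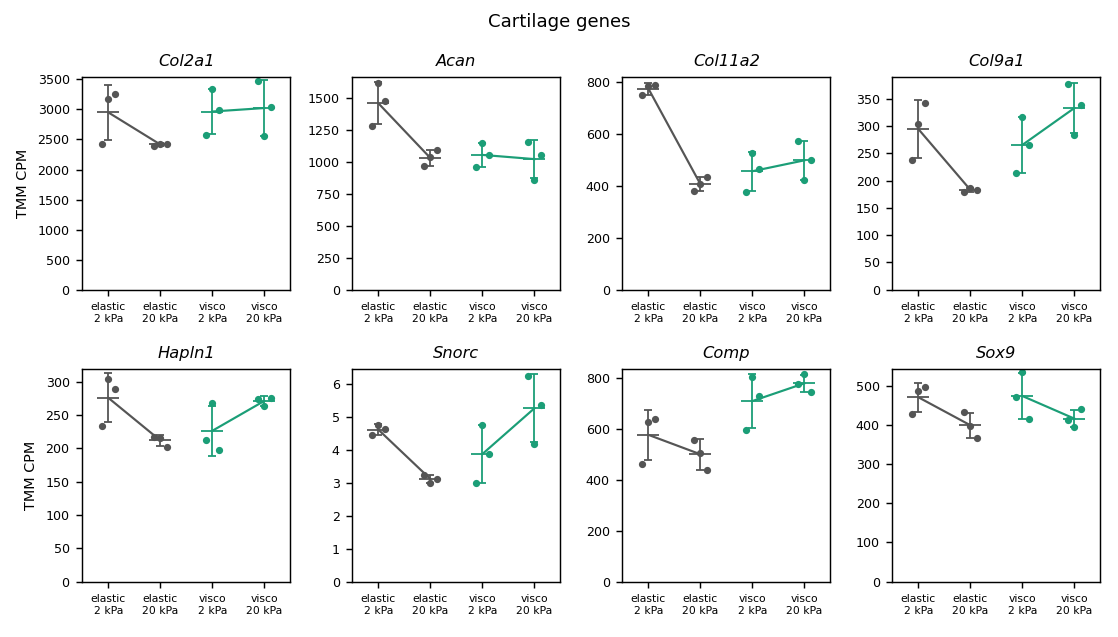
Level in CPM (y axis, from 0) of 8 chondrocyte markers, with 1 point per sample, bars for the mean ± SD of 3 samples and lines joining 2 to 20 kPa within elastic (grey) and viscoelastic (green) gels. Acan, Col11a2, Col9a1, Hapln1 and Snorc fall from 2 to 20 kPa on elastic gels without overlap, and Sox9 stays between 367 and 535 CPM over all groups.

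Other cell type lists had lower sums than the chondrocyte list. The 10 muscle and pericyte markers summed to 486 to 567 CPM on elastic 2 kPa gels and 389 to 525 on elastic 20 kPa gels, and on viscoelastic gels to 333 to 347 and 292 to 348, with overlap within both pairs. Keratinocyte markers summed to 19.8 to 27.8 CPM and endothelial markers to 3.93 to 5.37 CPM over all samples. The Schwann cell and melanocyte list summed to 106 to 108 CPM on elastic 2 kPa gels and 60.6 to 64.5 on elastic 20 kPa gels, and on viscoelastic gels to 70.6 to 83.8 and 91.4 to 112. Of its 7 tested members S100b, which cartilage also makes, and Cdh19 were positive (28.6%, against 4.45% of all tested genes). S100b had levels of 71.4, 73.3 and 70.9 CPM on elastic 2 kPa gels and 44.1, 40.0 and 43.7 CPM on elastic 20 kPa gels. At 2 kPa the viscoelastic samples gave 49.3, 58.3 and 58.1 CPM, and at 20 kPa 88.6, 67.9 and 89.2 CPM, turning direction with both pairs apart (interaction 1.32 ± 0.13, edgeR adjusted p = 5.8e-05). Of 7 adipocyte markers 2 were tested and both were positive, Pparg (0.49 ± 0.11) and Fabp4 (0.90 ± 0.21, adjusted p up to 0.0519). The whole list summed to 33.4 to 35.3 CPM on elastic 2 kPa gels and 24.2 to 27.0 on elastic 20 kPa gels, and on viscoelastic gels to 28.6 to 31.1 and 28.6 to 36.0, apart on elastic gels alone, and its defining members Adipoq and Plin1 were too low to be tested. The adipocyte regulator Cebpa was positive as well (1.03 ± 0.13). Of 6 tested endothelial markers Tek alone was called (−1.65 ± 0.34), at about 1 CPM. The 7 keratinocyte and 6 muscle and pericyte markers tested held 0 calls by edgeR, DESeq2 or limma voom (1 and 0 at an unadjusted p under 0.05). The part of these lists in other results was not tested.

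The fibroblast identity list itself divided, with 11.8% positive and 23.5% negative, against 4.45% and 3.12% of all tested genes. Of 17 tested members the activated fibroblast protease Fap (1.76 ± 0.26) and dermatopontin, Dpt (1.31 ± 0.37), were positive, and Cd34 (−0.83 ± 0.16), Ly6a (−0.80 ± 0.16), Thy1 (−0.62 ± 0.13) and S100a4 (−0.31 ± 0.08) negative. Fap was at 28.0, 24.7 and 20.7 CPM on elastic 2 kPa gels and 9.90, 10.2 and 15.9 CPM on elastic 20 kPa gels. Its viscoelastic levels were 6.19, 9.68 and 7.18 CPM at 2 kPa and 11.9, 14.9 and 11.2 CPM at 20 kPa. Thy1 measured 222, 203 and 179.8 CPM on elastic 2 kPa gels and 287, 261 and 292 CPM on elastic 20 kPa gels. Thus, on elastic gels, Fap fell with stiffness and Thy1 rose. The median of −0.09 turned positive, 0.018, with genes of at least 5 CPM alone, so the sign of the median depended on the filter. Dpt (adjusted p up to 0.119) and S100a4 (up to 0.0799) lost their calls with single samples left out.

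Of 25 BMP and ID genes 5 were positive (20.0%, against 4.45% of all tested genes) and 0 negative, with a median of 0.15. Bmp5 stood at 77.4, 82.1 and 73.2 CPM on elastic 2 kPa gels and 60.3, 61.0 and 56.3 CPM on elastic 20 kPa gels. Viscoelastic samples were at 62.9, 55.0 and 63.0 CPM on 2 kPa gels and at 71.6, 75.3 and 75.4 CPM on 20 kPa gels. It turned direction with both pairs apart (interaction 0.69 ± 0.09, edgeR adjusted p = 0.000437). Bmp2 had the highest fitted value of the list (2.48 ± 0.59, edgeR adjusted p = 0.0195) at low levels (0.795, 1.44 and 0.954 CPM on viscoelastic 2 kPa gels and 2.27, 6.45 and 1.86 CPM on viscoelastic 20 kPa gels), where replicate 2 of the stiffer group stood apart. Its adjusted p reached 0.0668 with single samples left out (replicate 1 of either 2 kPa group). The BMP target Id2 (0.37 ± 0.08), Msx1 (0.47 ± 0.09) and Gdf10 (1.58 ± 0.37, adjusted p up to 0.0579) were the others.

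In TGF-beta signalling 4 of 26 genes were positive (15.4%, against 4.45% of all tested genes) and 3 negative (11.5%, against 3.12%). Tgfb2 had levels of 102, 74.3 and 50.7 CPM on elastic 2 kPa gels and 28.6, 27.6 and 37.5 CPM on elastic 20 kPa gels. In the viscoelastic groups the values were 25.2, 28.4 and 26.8 CPM at 2 kPa and 30.8, 37.2 and 33.5 CPM at 20 kPa (interaction 1.62 ± 0.26, edgeR adjusted p = 0.00162). The ligand Tgfb1 (0.59 ± 0.14), its latency protein Ltbp4 (0.60 ± 0.09) and the decoy receptor Bambi (0.42) were positive. The inhibitors Fst (−0.59 ± 0.14) and Smad7 (−0.40) and the follistatin relative Fstl1 (−0.43) were negative. The calls of Tgfb2, Tgfb1 and Ltbp4 held whichever sample was left out, and those of Bambi (adjusted p up to 0.0749), Fst (up to 0.0529), Smad7 (up to 0.103) and Fstl1 (up to 0.0874) did not.

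In WNT signalling 4 of 29 genes were positive and 4 negative (13.8% each, against 4.45% and 3.12% of all tested genes). The feedback target Axin2 (1.00 ± 0.18), the factor Lef1 (0.61), the ligand Wnt5b (0.64) and the feedback inhibitor Nkd1 (0.85 ± 0.24) were positive. The relative of the last, Nkd2, was negative (−0.94 ± 0.10, edgeR adjusted p = 8.11e-05), with Dkk2 (−1.58 ± 0.38), Rspo1 (−0.86) and the receptor Fzd4 (−0.70 ± 0.14). Nkd2 was at 8.55, 9.26 and 8.57 CPM on elastic 2 kPa gels and 14.8, 14.9 and 13.2 CPM on elastic 20 kPa gels. On viscoelastic gels it stood at 14.4, 14.4 and 14.6 CPM at 2 kPa and 12.4, 12.2 and 12.2 CPM at 20 kPa. Among 30 IGF, PDGF and FGF genes the ligands Igf1 (1.01 ± 0.14) and Pdgfa (0.44 ± 0.11) and the receptor Fgfr2 (0.69 ± 0.09) were positive, and Hgf (−0.57 ± 0.10), Fgf10 (−0.83), Igfbp6 (−0.65) and Vegfa negative. That list was 10.0% positive and 13.3% negative, against 4.45% and 3.12% of all tested genes. The calls of Axin2, Nkd2, Fzd4, Igf1, Fgfr2 and Hgf held whichever sample was left out, and the others of both lists reached an adjusted p between 0.0546 (Dkk2) and 0.12 (Fgf10).

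In oxidative phosphorylation the fitted interactions were small, from −0.15 to 0.44. Of 76 nuclear genes of oxidative phosphorylation 8 were positive (10.5%, against 4.45% of all tested genes) and 0 negative, with a median of 0.18. After correction for gene length and GC content 1 gene of the list was called, Ndufv3 of those 8, and the median was 0.11. On viscoelastic gels 15 of the 76 rose with stiffness, and on elastic gels 0 were called by edgeR. Over all tested genes the median interaction fell from 0.08 in the fifth of genes with the shortest exons to −0.02 in that with the longest, and rose from −0.04 at the lowest GC content to 0.07 at the highest. The respiratory subunits Ndufv3 (0.38 ± 0.09) and Uqcr10 (0.37 ± 0.10) were among the 8, none of which held its call in every fit with 1 sample left out. Lipid genes held 5 positive calls (Cebpa, Fabp4, Elovl6 0.58 ± 0.09, Pparg and Lpin1 0.36) and 1 negative (Acsl4, −0.84 ± 0.13) of 27. The shares were 18.5% and 3.7%, against 4.45% and 3.12% of all tested genes. Elovl6, which lengthens fatty acids, and Acsl4, which activates long polyunsaturated ones, each had called responses of opposite sign on the 2 gel types, Elovl6 −0.30 on elastic and 0.28 on viscoelastic gels and Acsl4 0.44 and −0.41.

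Some lists held 0 calls by edgeR, DESeq2 and limma voom. They were 80 cytosolic ribosomal protein genes (5 at an unadjusted p under 0.05), 32 proteasome genes (2), 26 RNA polymerase subunits (2), 25 cholesterol genes (2) and 7 mitochondrial genome genes (0). The cytosolic ribosomal median was 0.08 and −0.0024 after correction for gene length and GC content. Single calls came from the lysosomal enzyme Hexa (0.54 ± 0.09), the interferon-induced proteasome subunit Psmb9 (1.18 ± 0.32) and the chaperone Hsph1 (−0.59 ± 0.10), and that of Psmb9 was lost with single samples left out (adjusted p up to 0.0899). They were 3.33%, 3.57% and 3.03% of their lists, below the 4.45% positive and 3.12% negative of all tested genes.

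**Figure D5:**
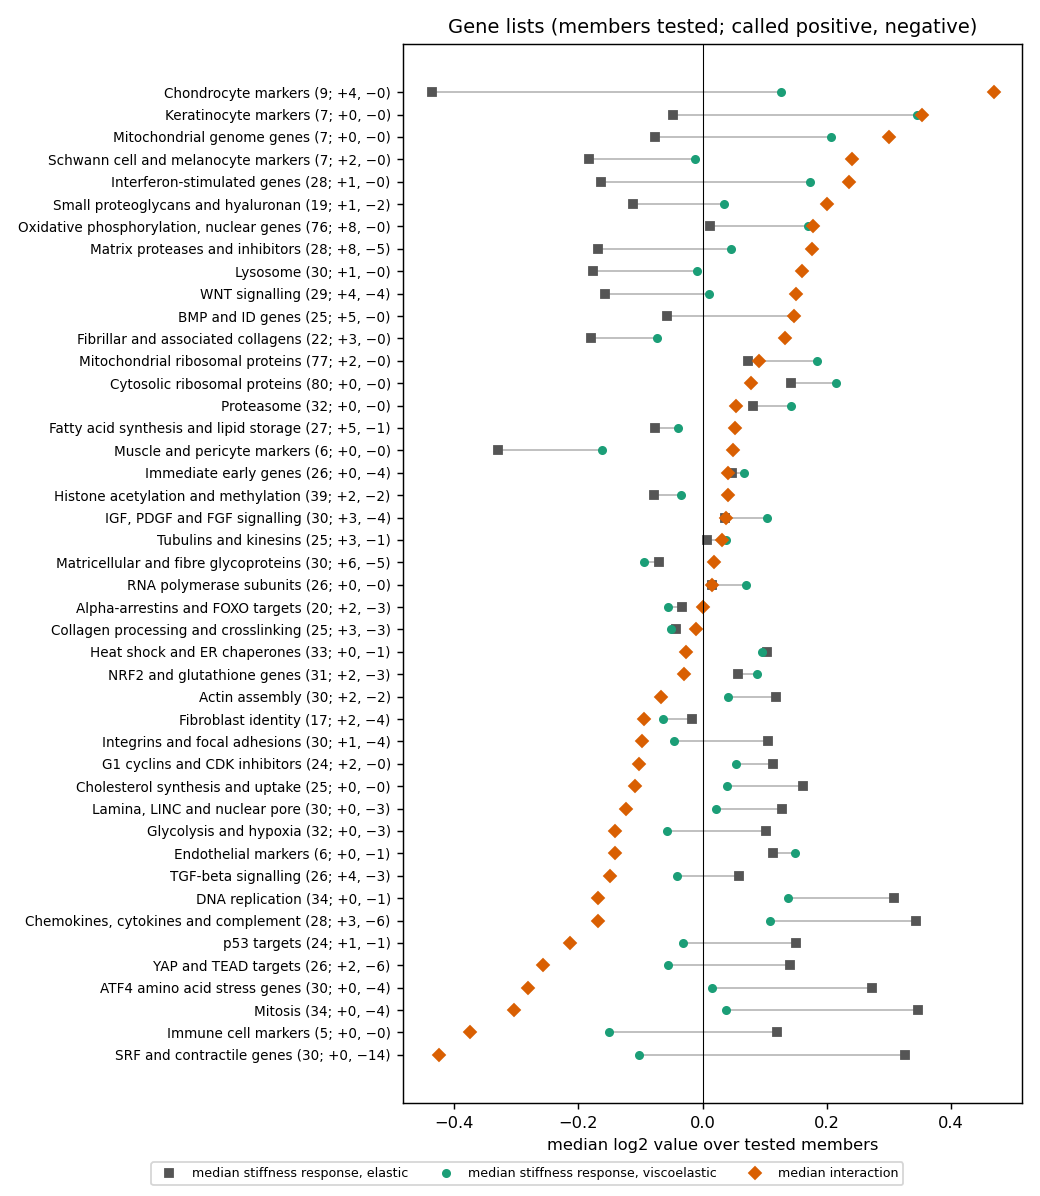
Median log2 stiffness response on elastic gels (grey squares) and viscoelastic gels (green circles) and median interaction (orange diamonds) over the tested members of the reported lists with at least 5, with the number tested and called in each direction beside the name. SRF and contractile genes lie lowest at −0.42 and chondrocyte markers highest at 0.47, against 0.02 over all tested genes.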

How the data were processed

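Poly-A RNA of the 12 samples was sequenced. Per the submitters' processing notes and the study's methods, reads went through Trimmomatic, STAR (mm10) and featureCounts with GENCODE gene models, and the authors deposited the resulting raw counts, without normalization, as 1 table. The GENCODE release and the strand and multimapper settings were not given in the sources used here, so overlapping and antisense genes cannot be told apart, nor can reads of near-identical copies. Of the 33246 symbols 2284 had no match in GENCODE M21, among them that of 18S ribosomal RNA, so the gene models behind the counts are uncertain. The study tested these counts with DESeq2.

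From the deposited counts, genes passing edgeR's filterByExpr by group (minimum count 10, minimum total 15) were kept, which left 14542 of the 33246 listed. Another 10097 of those listed had no count in any sample. Libraries were scaled by TMM and fitted with 1 coefficient per group over all 12 samples (glmQLFit and glmQLFTest, edgeR 4.0.16, R 4.3.3). The biological coefficient of variation was 7.50%. The test was tried first on simulated data. Samples held 36626221 to 43612804 counts, which limits precision mainly for genes near 1 CPM.

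The members and the 46 gene lists were chosen with earlier results of these data known. Named genes were the 8 of each direction with the lowest p, the 5 of each crossover kind and direction with the largest smaller change (mean of at least 1 CPM, passing over Gm, Rik and ribosomal RNA symbols), and up to 4 called members per list, or the 2 most abundant members where none was called. The remaining called list members and further genes were added after their values were seen. Lists are described by counts and medians without a set test. The study calls the replicates biological but does not say whether each came from its own animal, so p-values measure the spread between these samples, which may be technical. Promoter windows came from RefSeq (GRCm38.p6). Other data types of the study were not used here, and a few genes and 1 list are not reported here.

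Alternatives were DESeq2 1.42.0 (Wald test, or its size factors in edgeR), voom of limma 3.58.1, total counts, other filters, a threshold of 0.01, correction for exon length and GC content (GENCODE M21, known for 14314 tested genes, 98.4%), a replicate block, and leaving out each sample.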

Additional observations from a re-analysis of the deposited data

Results flagged for a closer look

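The stiffness effect differed between elastic and viscoelastic gels by the interaction test in 1100 genes, turned direction in 69, and the gel effect turned direction in 193. These counts are those of the report and are listed because they compare 1 contrast between 2 kinds of gel.

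The genes in which either effect turned direction by the most had positive interactions (log2, edgeR) of 2.11 in Nrep, 2.08 in Tmem252, 2.03 in Tspan8, 2.01 in Myoc, 1.97 in Lrrn3, 1.94 in Ptn, 1.93 in Adamts9 and 1.66 in Fam222a. Negative interactions were −2.51 in Siglecg, −2.30 in Prl2c3 and, with the same counts, in Prl2c4, −2.25 in Msln, −2.21 in Serpinb9b, −2.06 in Myh11, −1.97 in Il31ra and −1.92 in Bst1. Fam222a lost its interaction call with 2 single samples left out (highest adjusted p 0.0545), and the calls of the others held in all 12 such fits. Fam222a, Tmem252, Tspan8 and Myh11 had means of about 1 to 2 CPM. With 3 samples per group no single sample was tested for standing apart.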

How the results depend on the processing

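The interaction count was 400 at an adjusted p under 0.01, against 1100, and 670 to 1182 with 1 sample left out. The stiffness crossover count (69) was 133 with DESeq2, 161 with every gene that had a count, 8 at an adjusted p under 0.01, and 8 to 65 with 1 sample left out. The gel crossover count (193) was 73 at an adjusted p under 0.01 and 135 to 210 with 1 sample left out. Apart from these and the replicate block, other settings kept these counts within 1.5 times. The cause of these changes was not tested.

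Replicate numbers did not pair the samples across all groups: deviations of the 18 same-numbered pairs had correlations of −0.200 to 0.308 (mean −0.025). Between viscoelastic 2 and 20 kPa gels the same-numbered pairs had 0.184, 0.308 and 0.048. Some pairs of different number were also positive, such as replicate 1 of elastic 20 kPa with replicate 2 of viscoelastic 20 kPa (0.228). Whether samples shared a batch was not tested. With the replicate block 845 genes had an interaction and 32 a stiffness crossover, and 41 of the 213 named calls were lost. With the replicate block and length and GC correction 35 stiffness crossovers were called.

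No called named gene changed sign in 5297 recomputed values. Genes that were not called did, near 0. Hmgcs1 was 0.00072 with GC correction (−0.12 to 0.037 leaving out samples). Polr2b was −0.0080 with DESeq2, −0.0081 with its size factors and −0.00022 with every counted gene (−0.020 to 0.043). Psmd1 was −0.018 with DESeq2 and with its size factors, −0.0074 with GC correction, −0.0096 with every counted gene, −0.0051 at 5 CPM and −0.0015 with total counts (−0.034 to 0.029). Rpl4 was −0.040 with length and GC, −0.044 with length and −0.039 with the block as well (−0.040 to 0.066). Rplp0 was −0.012 with GC, −0.063 with both, −0.032 with length and −0.060 with the block as well (−0.048 to 0.11). Sfn was −0.059, −0.11, −0.040 and −0.11 in the same order (−0.038 to 0.13), and Sox9 −0.036 to 0.15 leaving out samples. Several list medians changed sign. Cytosolic ribosomal proteins were −0.0024 with length and GC and −0.0015 with the block as well, and fatty acid genes −0.018 with GC. Fibroblast identity was 0.018 at 5 CPM (−0.22 to 0.072 leaving out samples). Keratinocyte markers were −0.42 at 5 CPM, and endothelial markers ran from −0.40 to 0.11 leaving out samples. Other medians near 0 did so too, and those given here are examples. Immediate early genes were −0.052 with length and GC (−0.13 to 0.19 leaving out samples), and tubulins and kinesins −0.0058. With DESeq2 RNA polymerase subunits were −0.0026, matricellular genes −8.3e-05 and arrestin and FOXO genes −0.017. Leaving out samples, IGF, PDGF and FGF genes ran from −0.068 to 0.070 and collagen processing genes from −0.058 to 0.044. The share of positive among called genes was 58.8%, and ran from 50.8% (without replicate 1 of the elastic 20 kPa group) to 62.2%. Further list counts moved by over 1.5 times. With the replicate block, positive calls went from 2 to 0 in histone genes and mitochondrial ribosomal genes, from 3 to 1 in tubulins, from 8 to 5 in oxidative phosphorylation, and from 2 to 1 in actin assembly, arrestin and FOXO genes and fibroblast identity. Negative calls went from 2 to 0 in small proteoglycans, from 4 to 2 in ATF4 genes, from 3 to 1 in arrestin and FOXO genes and from 2 to 1 in actin assembly. With length and GC correction, negative calls went from 3 to 6 in glycolysis, from 1 to 4 in p53 targets and from 1 to 2 in heat shock genes, and positive calls from 2 to 1 in NRF2 genes and fibroblast identity. With DESeq2, positive calls went from 3 to 5 in collagens, from 1 to 2 in small proteoglycans and lysosomal genes and from 2 to 1 in fibroblast identity, and negative calls from 1 to 3 in DNA replication and from 1 to 2 in p53 targets and heat shock genes. With voom, positive calls went from 2 to 1 in mitochondrial ribosomal genes.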

Other observations

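Several groups not described above also held interaction calls. Of 30 actin assembly genes the monomer-binding Tmsb4x (−0.36 ± 0.10) and the formin Diaph1 (−0.37 ± 0.09) were negative, and Enah (0.45 ± 0.11) and the severing protein Gsn (0.39 ± 0.11) positive, and of these only Enah kept its call whichever sample was left out. Of 25 tubulins and kinesins Tubb2b was negative (−0.53 ± 0.09) and Kif26b (0.56 ± 0.12), Kif13b (0.39 ± 0.11) and Tuba1a (0.35 ± 0.09) positive, the last 2 without keeping their calls (adjusted p up to 0.104 and 0.0914). Of 24 p53 targets Perp was negative (−0.96 ± 0.18) and the stress-induced Sesn1 positive (0.55 ± 0.09), both with every sample left out in turn, and the median was −0.21. The p53 list was thus 4.17% called in each direction, near the 4.45% positive and 3.12% negative of all tested genes. Actin assembly genes were 6.67% called in each direction. The positive share of tubulins and kinesins was higher than over all tested genes, and their negative share was near it.

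Among 31 NRF2 and glutathione genes Txnrd1 (−0.50 ± 0.14), Gsto1 (−0.42 ± 0.09) and G6pdx (−0.32 ± 0.07) were negative and Gstm1 (0.40 ± 0.10) and Gstm5 (0.44 ± 0.12) positive, and Gsto1 alone kept its call in all 12 fits with 1 sample left out. Of 20 alpha-arrestin and FOXO genes Zbtb16 had an interaction of 1.67 ± 0.23, Foxo3 one of 0.29 ± 0.08, Cited2 one of −0.51 ± 0.13, Arrdc3 one of −0.44 ± 0.10 and Pdk4 one of −0.41 ± 0.11, and Zbtb16 alone kept its call in those fits. The NRF2 and glutathione list was 6.45% positive and 9.68% negative, against 4.45% and 3.12% of all tested genes. Both shares of the arrestin and FOXO list were also higher than over all tested genes. Mitochondrial ribosomal genes held 2 positive calls of 77, Mrpl52 (0.34 ± 0.10) and Mrps18a (0.34 ± 0.10), neither kept. They were 2.6% of the list, below the 4.45% of all tested genes. Of 589 long noncoding genes tested, 13 were positive and 9 negative, both smaller shares than over all tested genes (4.45% and 3.12%).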
